A study of Drosophila melanogaster with 54 samples.

Results

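The genes of the TALE homeodomain cofactors were themselves examined as places of Hox binding. The members are hth (homothorax), exd (extradenticle), vis (vismay) and achi (achintya), 4 of the 13945 protein-coding genes on the 6 chromosome arms. A bound region was counted for a gene when it touched the gene body or the 5 kb on either side. In the lists called at q 0.01 this gave 171 of 116680 regions, 114 of them at hth, 8 at exd and 49 at vis and achi together, and in the lists called at q 1e-10 it gave 90 of 55094. On dm6, hth lies on the minus strand of 3R (10507561 to 10639568), exd on the plus strand of X (15992468 to 15996509), and vis (12507896 to 12510615) and achi (12511534 to 12515062) lie next to each other on the minus strand of 2R, so that their windows overlap.

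The assay was ChIP-seq for GFP in the Drosophila line Kc167, which is of embryonic origin, transiently transfected with plasmids and induced for 4 h with 1 mM copper sulphate through the metallothionein promoter, and sorted for GFP. The groups were 8 Hox proteins fused to eGFP and expressed together with Hth (Lab+Hth, Pb+Hth, Dfd+Hth, Scr+Hth, Antp+Hth, Ubx+Hth, AbdA+Hth and AbdB+Hth), the same 8 expressed without Hth (Lab, Pb, Dfd, Scr, Antp, Ubx, AbdA and AbdB), eGFP-tagged Hth, and eGFP-tagged Exd with Hth (Exd+Hth). Each of the 18 groups had 2 ChIP libraries and 1 input sample, 54 samples in all. The read overview of the study gives the same input totals for AbdA as for AbdB, and again for AbdA+Hth as for AbdB+Hth, which leaves it unclear whether AbdA and AbdB had inputs of their own and are fully separate units. The lists hold 1 set of regions for each group that combines both libraries, with no heights, reads or expression values, so the depth behind a region cannot be read from them, no value has a replicate error, and the 8 proteins are the units of every test. Exd+Hth was used at q 0.01 alone. According to the study Kc167 cells make Exd but not Hth, so the groups without Hth had Exd outside the nucleus. Ubx, AbdA and AbdB, with and without Hth, were sequenced on another platform than the rest.

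TALE proteins carry an extended loop in the homeodomain. Exd, the fly Pbx protein, pairs with Hox proteins on DNA and raises their sequence preference, and Hth, the fly Meis protein, binds Exd, carries it into the nucleus and keeps it stable. Hth and Exd pattern the proximal parts of the legs and wings and set antennal identity, and in the trunk they act with Hox proteins on segment identity. Vis and Achi are nearly identical to each other, are related to the mammalian TGIF repressors, and are needed in the testis for male meiosis. The chief comparison was of each Hox protein with Hth against the same protein without it at the genes for the cofactors.

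The sequences below are 200 base windows of the reference at the stretch covered by the most groups, given to show what lies under the sites that the results turn on. The first is the hth site shared by all groups (chr3R:10614371-10614570). Its window lies just upstream of the common hth start at 10614276 and does not hold that start. The next are sites shared by most groups upstream of the common hth start (chr3R:10617119-10617318) and far inside the gene (chr3R:10568414-10568613). The Pb site (chr3R:10553499-10553698) and the Lab+Hth and Pb+Hth site (chr3R:10545710-10545909) were found with few proteins. The last, labelled exd and eIF5 starts, is the site over the start of eIF5 (chrX:15991858-15992057). That window lies upstream of every exd start and holds none of them. All windows are written on the plus strand, and capitals mark matches to the motifs named after them.
hth start site: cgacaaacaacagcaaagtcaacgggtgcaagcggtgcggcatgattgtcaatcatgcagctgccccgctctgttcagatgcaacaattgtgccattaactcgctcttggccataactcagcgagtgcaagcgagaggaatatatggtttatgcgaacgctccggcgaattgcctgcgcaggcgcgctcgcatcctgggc
hth 2.9 kb upstream: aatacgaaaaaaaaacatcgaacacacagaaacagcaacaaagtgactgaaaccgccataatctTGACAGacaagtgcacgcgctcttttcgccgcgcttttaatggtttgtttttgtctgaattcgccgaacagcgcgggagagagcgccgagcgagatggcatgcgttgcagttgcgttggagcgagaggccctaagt
hth 45.8 kb downstream: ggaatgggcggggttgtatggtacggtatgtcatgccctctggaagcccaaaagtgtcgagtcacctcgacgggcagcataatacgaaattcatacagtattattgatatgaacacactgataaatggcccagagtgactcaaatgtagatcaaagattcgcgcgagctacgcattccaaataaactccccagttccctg
hth Pb site: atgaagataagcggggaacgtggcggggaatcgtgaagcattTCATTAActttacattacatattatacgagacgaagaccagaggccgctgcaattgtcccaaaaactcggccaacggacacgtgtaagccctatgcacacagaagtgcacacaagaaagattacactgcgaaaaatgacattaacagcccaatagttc
hth Lab+Hth and Pb+Hth site: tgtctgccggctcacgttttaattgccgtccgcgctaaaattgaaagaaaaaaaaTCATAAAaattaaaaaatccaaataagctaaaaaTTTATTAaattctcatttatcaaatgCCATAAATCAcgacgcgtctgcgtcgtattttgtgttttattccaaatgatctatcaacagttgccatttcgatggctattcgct
exd and eIF5 starts: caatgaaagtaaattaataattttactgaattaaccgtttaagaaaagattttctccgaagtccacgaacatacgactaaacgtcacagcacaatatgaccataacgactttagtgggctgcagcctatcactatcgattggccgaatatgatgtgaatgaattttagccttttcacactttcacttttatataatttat

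The motifs searched on both strands were Exd-Hox sites (TGATTAAT, TGATTGAT or TGATTTAT), Hox TAAT cores (either TTAATTA or its variant TTAATGA), Hox TTAT cores (either TTTATTA or TTTATTG, and their G variants, which are TTTATGA or else TTTATGG) and the Hth site (TGACAG). An Exd-Hox TGATTTAT overlaps a TTAT core if the next bases allow it. Over all 14861 merged sites of 17 groups (Exd+Hth left out), 9.45% of such windows held an Exd-Hox site, 21.7% a TAAT core, 28.7% a TTAT core and 9.93% an Hth site, and 47.3% held none. Of the 15 windows at hth, 3 held an Exd-Hox site, 3 a TAAT core, 4 a TTAT core and 1 the Hth site, and 6 held none. The window just upstream of the hth start, with 17 of 17 groups, held none of them, nor did the windows at 57.1 kb with 13 groups and at 45.8 kb with 15 groups. The single Hth site lay in the window 2.94 kb upstream of the start. An Exd-Hox site stood at the Lab+Hth and Pb+Hth site, at a site of Dfd+Hth alone and at the site 8.12 kb upstream that 14 groups shared. At the first and last of these it overlapped a TTAT core, so some bases counted for both motifs. The window over the eIF5 start held no match, and 1 of the 3 windows at exd, that of Dfd+Hth alone, held an Exd-Hox site.

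The gene hth was bound by every Hox protein with Hth and by every one without it. Regions of all 8 proteins with Hth stood within 5 kb of 17.0% of protein-coding genes and regions of all 8 without Hth of 19.2%. In the q 1e-10 lists hth kept 8 of 8 proteins with Hth, as did 4.92% of genes, and 7 of 8 without Hth, Lab being the exception, where 6.85% of genes had at least 7. Hth alone had 4 regions there (46.9% of genes had at least 1) and Exd+Hth had 8 (70.7% of genes had at least 1). The gene is long, at 132 kb, and of the 83 protein-coding genes of at least 100 kb, 50.6% had all 8 proteins with Hth and 43.4% all 8 without. Per kb of window hth held 29.9 covered base pairs with Hth, against a median of 10.3 over those long genes, and 22.6 without Hth, against 8.92. Over all genes the medians were close to hth, at 27.3 with Hth and 21.7 without. By this density hth ranked 28 and 27 of the 83 long genes.

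**Figure D1:**
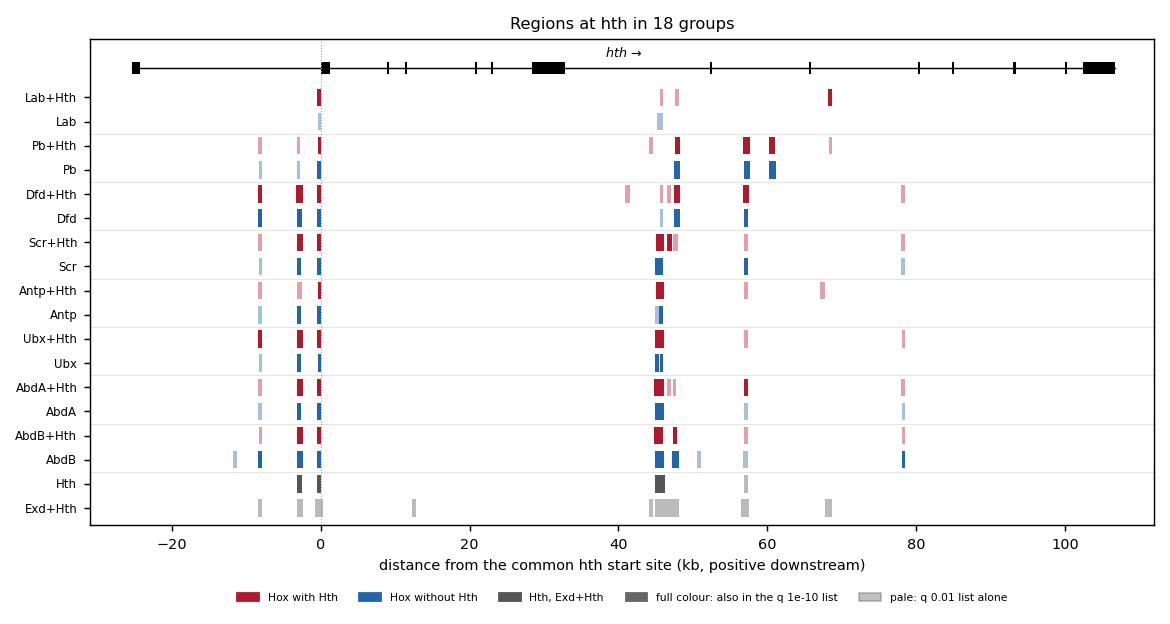
Bound regions at hth in each of 18 groups (rows, each Hox protein with Hth above the same protein without it) against distance in kb from the start site that most hth transcripts share; boxes on the top line are exons, full colour marks regions also in the q 1e-10 list, and Exd+Hth was used at q 0.01 alone. Regions are drawn at no less than a minimum width. Every row has a region at the start site, and regions cluster between 44 and 48 kb downstream.

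With Hth, the Hox proteins covered more of hth in 7 of 8 cases. Whole regions within 5 kb summed to 2068 bp for Lab+Hth, 4356 for Pb+Hth, 5589 for Dfd+Hth, 5197 for Scr+Hth, 3690 for Antp+Hth, 3586 for Ubx+Hth, 4815 for AbdA+Hth and 4619 for AbdB+Hth. Without Hth the sums were 1052 bp for Lab, 3580 for Pb, 3391 for Dfd, 3429 for Scr, 2346 for Antp, 2454 for Ubx, 3586 for AbdA and 5807 for AbdB. AbdB alone covered less with Hth than without it, and Lab was lowest in both conditions. Hth alone covered 2918 bp and Exd+Hth 8765 bp, the latter more than any Hox protein. As a share of its list, Exd+Hth covered 0.0907% at hth, within the range of the Hox groups. That range ran from 0.05% in Dfd+Hth to 0.169% in Antp+Hth. The paper states that weaker Exd+Hth peaks became significant through the low background of that ChIP.

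The Hth plasmids carry hth coding exons, and the authors removed regions over plasmid exons. No region of any group overlapped an hth coding exon, also in the 8 groups without the plasmid, whereas the untranslated part of the first exon that most transcripts share was overlapped in 8 of 8 groups with Hth and 6 of 8 without. The test therefore left out regions that overlapped any hth exon in every group. On that basis the covered length was 3698 ± 1062 bp with Hth and 2808 ± 1199.5 bp without (mean ± SD over 8 proteins), a difference of 889.6 ± 989 bp, higher in 7 of 8 proteins (exact sign-flip permutation test over 8 proteins, two-sided, p = 0.0547, with 0.00781 the smallest p possible). This rule still kept the start site region of Lab and Antp, which stops just short of the exon. With regions within 1 kb of an exon left out the difference was 983 bp (exact permutation p = 0.0469), and as deposited it was 1034 bp (p = 0.0391). AbdB was the only protein with less covered length with Hth. Leaving it out gave 1187 bp and fixed the exact permutation p at 0.0156, the smallest that 7 proteins allow. Leaving out any other protein gave 712 to 939 bp (exact permutation p 0.0938 to 0.109). The number of regions was 6 ± 1.6 with Hth and 5 ± 1.41 without, higher in 5, lower in 1 and equal in 2 of 8 proteins (exact permutation p = 0.188). The whole lists moved in the same direction: they covered 2179 to 11189 kb with Hth and 1744 to 7229 kb without, more in 6 of 8 proteins. As a share of the list the length at hth was higher in 5 and lower in 3 of 8 proteins. The mean difference in this share was 83.2 bp for each Mb listed (exact permutation p = 0.18). By the read overview of the study the ChIP libraries were deeper with Hth for Dfd and Ubx and shallower with Hth for the other proteins, and without Dfd the difference at hth was 712 bp (exact permutation p = 0.109). Apart from the share of the list, the parts of list size and depth in the result were not tested.

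**Figure D2:**
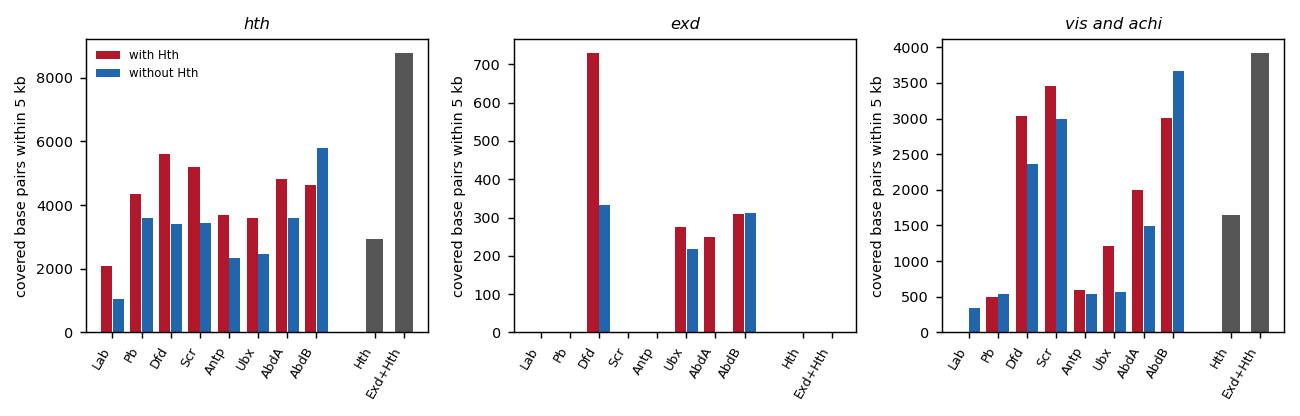
Base pairs covered by whole regions within 5 kb of hth, exd, and the vis and achi locus for each Hox protein with Hth (left bar) and without it (right bar), and for Hth alone and Exd+Hth (grey); each bar is 1 list, with no error. At hth the bars with Hth are higher for 7 of 8 proteins and lower for AbdB.

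Over the 11311 protein-coding genes with a region in at least 1 of the 16 Hox groups, the same test as deposited gave an unadjusted p below 0.05 for 7.32% with more covered length with Hth and for 0.0619% with less, and 0 genes after Benjamini-Hochberg adjustment. With 8 proteins the exact permutation p could not fall below 0.00781, where the adjusted p was 0.415, so the adjustment could pass no gene here. The median difference over all genes tested was 84.5 bp and 77.7% lay above 0. The hth difference of 1034 bp was larger than in 97.0% of them, with an adjusted p of 0.584 in the exact permutation test. Differences were not scaled to window length, and the hth window is 142 kb long. Per kb of window hth held 29.9 covered base pairs with Hth and 22.6 without, and the medians over all genes were 27.3 and 21.7. The part of gene length in this rank was not tested. The exd difference stood above that of 50.9% of genes, vis above 67.6% and achi above 79.3%, with adjusted p of 0.905, 1 and 0.905.

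**Figure D3:**
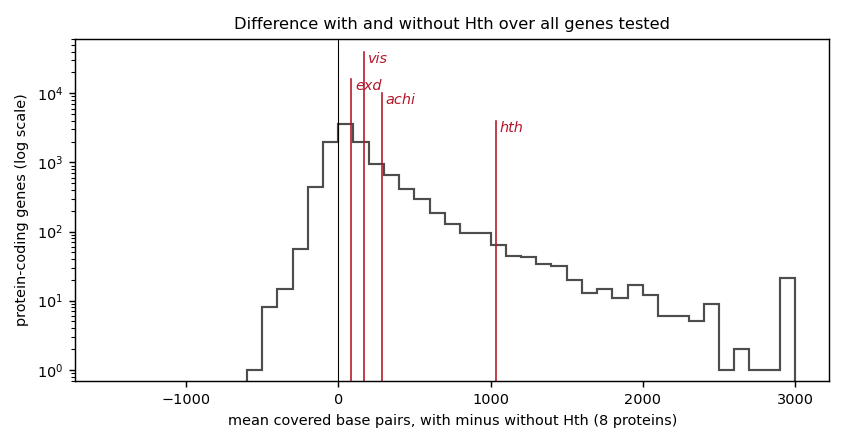
Number of protein-coding genes (log scale) by the mean difference in covered base pairs, with minus without Hth over 8 proteins, in bins of 100 bp; the last bin holds all larger values. Lines mark the 4 members, with hth at 1034 bp and exd, vis and achi at 86.9, 171 and 285 bp. Differences are not scaled to window length.

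Merging the regions of all 18 groups gave 13 sites at hth, all of them in introns except the one at the start. A wide Exd+Hth region of 3323 bp joined several of them, and without Exd+Hth there were 15 sites, a merging chosen after seeing the data and used from here on. Of these, 8 had Hox proteins in both conditions, 5 had them with Hth alone and 2 without Hth alone. Sites of Hth alone numbered 4 (the start, 2.94 kb upstream, and 45.8 and 57.1 kb downstream), and each was shared with at least 12 Hox groups.

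The common start site (3R 10614190 to 10614841) was bound in 17 of 17 groups and again by Exd+Hth, and 16 of 17 groups kept it at q 1e-10. It was wider with Hth for each of the 8 proteins. The region measured 473 bp in Lab+Hth and 310 in Lab, 461 in Pb+Hth and 430 in Pb, 596 in Dfd+Hth and 532 in Dfd, and 639 in Scr+Hth and 597 in Scr. It measured 465 bp in Antp+Hth and 440 in Antp, 524 in Ubx+Hth and 492 in Ubx, 606 in AbdA+Hth and 557 in AbdA, and 574 in AbdB+Hth and 572 in AbdB. Lab differed most and AbdB least, by 2 bp. Of the 905 sites in the genome with all 16 Hox groups, 8.62% were wider with Hth for all 8 proteins. This width was singled out after its values were seen and was not tested.

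Upstream of the common start, inside the long first intron of the longest transcript, lay a site at 2.94 kb (3R 10616663 to 10617552) and one at 8.12 kb (3R 10622123 to 10622681). Both had 7 of 8 proteins with Hth and the same 7 without, all but Lab, and only the nearer one had Hth alone. At the nearer site the median covered length over those 7 proteins was 794 bp with Hth and 575 bp without, wider in 5 of 7. At the farther one it was 443 bp with Hth and 436 bp without, also wider in 5 of 7. At downstream sites, over the proteins found in both conditions, medians with and without Hth were 1137 and 1020 bp at 45.8 kb and 755 and 801 bp at 47.7 kb. They were 550 and 513 bp at 57.1 kb and 285 and 359 bp at 78.2 kb. A site 11.5 kb upstream was found in AbdB alone.

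Downstream the sites separated the proteins. At 45.8 kb (3R 10568041 to 10569516) regions of every Hox protein but Pb were found in both conditions, together with Hth alone. Pb instead had regions at 47.7 kb (3R 10565977 to 10567020), in both conditions, and so did Dfd and AbdB. Lab, Scr and AbdA had a region at 47.7 kb with Hth and none without. The site at 60.7 kb (3R 10553117 to 10554010) was found in Pb+Hth and Pb and in no other group, with 807 and 876 bp, and in both at q 1e-10. At 57.1 kb (3R 10556567 to 10557518) 7 of 8 proteins with Hth had a region, against 5 of 8 without, and Antp and Ubx were those with it in the presence of Hth alone. At 78.2 kb (3R 10535723 to 10536212) the counts were 5 of 8 with Hth and 3 of 8 without, Dfd and Ubx being those found with Hth alone.

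The sites with Hox regions in the presence of Hth alone had few proteins each. Dfd+Hth, Scr+Hth and AbdA+Hth shared one at 46.8 kb (3R 10567150 to 10567804). Lab+Hth and Pb+Hth shared one at 68.5 kb (3R 10545524 to 10546120), with 597 and 354 bp, which Exd+Hth also covered and which Lab+Hth kept at q 1e-10. Antp+Hth (67.5 kb), Pb+Hth (44.4 kb) and Dfd+Hth (41.2 kb) had 1 each that no other Hox group had, and Exd+Hth regions overlapped those of Antp+Hth and Pb+Hth. Exd+Hth alone had a region 12.5 kb downstream, with no Hox protein. The sites without Hth alone, 11.5 kb upstream and 50.8 kb downstream, were both of AbdB.

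Counted by region, 15 of the 56 hth regions with Hth (26.8%) had no overlapping counterpart of that protein without Hth, and 3 of the 46 without Hth (6.52%) had none with it. Over the whole lists these shares were 26.6% and 14.1%. Dfd gained 3 and lost 0, Lab gained 2 and lost 1, and Pb, Scr, Antp, Ubx and AbdA each gained 2 and lost 0. AbdB gained 0 and lost 2. Over the whole lists AbdB gained 8.44% of its regions with Hth and lost 15.7% of those without, and Dfd gained 40.6% and lost 1.1%. Regions of Exd+Hth overlapped 49 of the 56 Hox regions at hth with Hth (87.5%, and 76.9% over the whole lists) and 40 of the 46 without (87.0%, and 79.8% over the whole lists). Regions of Hth alone overlapped 29 of the 56 with Hth (51.8%, and 49.2% over the whole lists) and 30 of the 46 without (65.2%, and 52.9% over the whole lists). These differences from the whole lists were not tested.

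At exd, few regions were found and none touched the gene. Within 5 kb, 4 of 8 proteins had a region with Hth (54.6% of protein-coding genes had at least 4) and 3 of 8 without (60.3% had at least 3). Hth alone and Exd+Hth had 0. In 18 groups 0 regions touched the exd body, which held for 44.9% of protein-coding genes. The Exd+Hth plasmid carries exd coding sequence, so regions over its exons would have been removed in that group. The Hox groups carry no exd plasmid, but whether the removal was applied to every group is not given in the sources used here, and hth coding exons held 0 regions also in groups without an Hth plasmid, so the lists do not show whether Hox proteins bound over exd exons. All 50-base stretches of the exd window occurred once in the reference (100%).

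The main exd site (X 15991749 to 15992141) lay 0.511 kb upstream of the first exd start and over the start of eIF5 at 15991974, a translation initiation factor gene that runs the other way, and of CG46312. It measured 393 bp in Dfd+Hth and 334 in Dfd, 308 in AbdB+Hth and 312 in AbdB, 248 in AbdA+Hth with no region in AbdA, and 219 in Ubx with no region in Ubx+Hth. Dfd and AbdB thus had it in both conditions, AbdA with Hth and Ubx without. Dfd+Hth was the 1 group to keep it at q 1e-10, where 66.2% of genes had at least 1 protein with Hth. Dfd+Hth also had a 336 bp region over eIF5 and CG46312, and Ubx+Hth a 275 bp region at the start of CG8939, beyond the 3′ end of exd. The covered length was 195 ± 256.1 bp with Hth and 108 ± 153 bp without (mean ± SD over 8 proteins), a difference of 86.9 ± 151 bp that was higher in 3, lower in 1 and 0 in 4 of 8 proteins (exact two-sided sign-flip permutation, p = 0.25).

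Around vis and achi most of the bound length belonged to neighbouring sequence. The vis window had regions of 7 of 8 proteins with Hth (26.8% of genes had at least 7), Lab+Hth being the exception. It had regions of 8 of 8 without (19.2% of genes had all 8), and of Hth alone and Exd+Hth as well. The achi window had 5 of 8 with Hth (46.7% of genes had at least 5) and 4 of 8 without (53.3% had at least 4). At q 1e-10 vis had 5 with Hth (22.2% of genes had at least 5) and 7 without (6.85% had at least 7). There achi had 3 with Hth (36.7% had at least 3) and 2 without (42.4% had at least 2). In the 18 groups 0 regions touched the vis body itself. The paralogs limit what can be seen there: the authors kept reads with 1 match, and of the 50-base stretches 51.6% in vis and 62.9% in achi occur once in the reference, against 100% in the hth window. The read length is not given in the sources used here. Each of the 5 merged sites at this locus lay in sequence with 100% unique 50-base stretches, and the part of repeated sequence in the empty vis body was not tested.

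**Figure D4:**
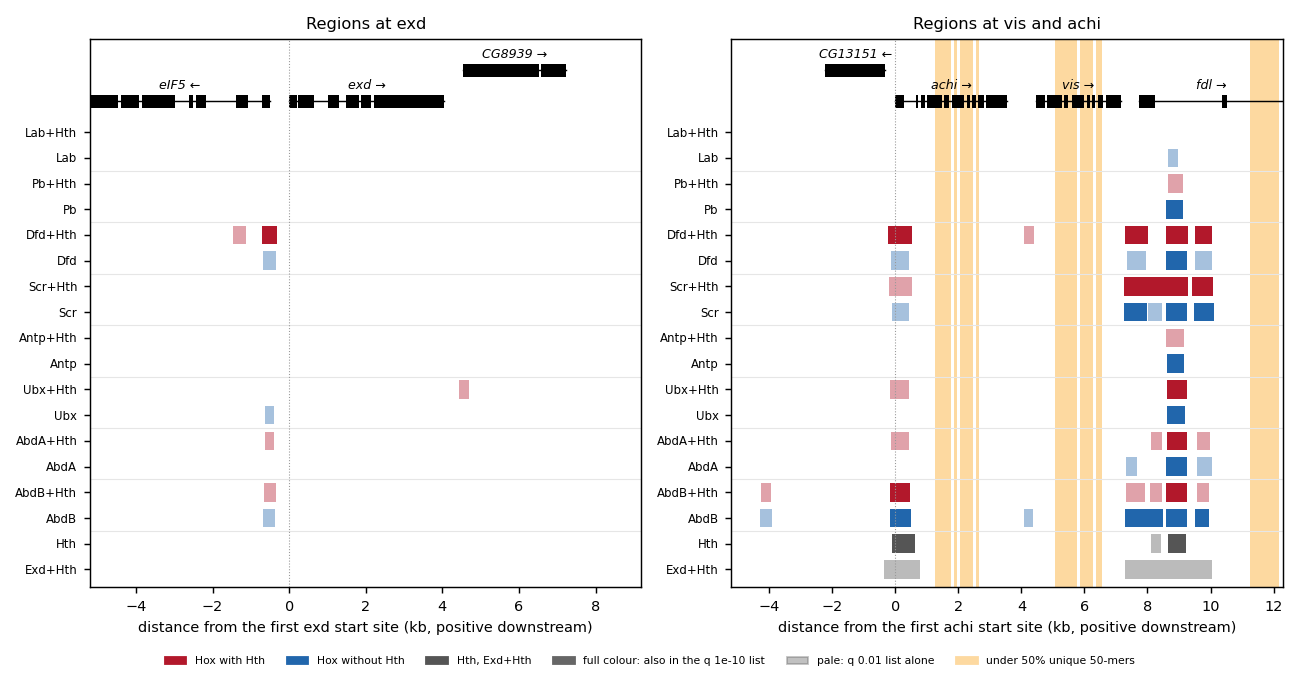
Bound regions at exd (left, kb from the first exd start) and at vis and achi (right, kb from the first achi start) in 18 groups, drawn as in the map of hth, with exons as boxes and shaded stretches where under 50% of 50-base stretches are unique. Regions sit at the start of eIF5 beside exd, at the start of achi and over fdl downstream of vis, and none lies in the shaded parts or over exd or vis.

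The most shared site of this locus (2R 12505769 to 12507822) lay in fdl, a hexosaminidase gene next to vis, and reached its start. It had 7 of 8 proteins with Hth and 8 of 8 without, and Hth alone. The stretch shared by 16 groups (12506078 to 12506411) lay in an fdl intron. Over the fdl start at 12507333 the only Hox regions were those of Dfd, Scr and AbdB, in both conditions. The widest Hox region of the site, that of Scr+Hth at 2054 bp, joined these parts, and Lab covered 334 bp. At q 1e-10 the parts were separate, an intron site of 13 groups and one reaching the start with 4. A further site within fdl (2R 12504965 to 12505645) had Dfd, Scr, AbdA and AbdB in both conditions. Just upstream of the vis start, at 12510615, lay a site of Dfd+Hth (318 bp) and AbdB (294 bp), the one nearest to vis. The site at the start of achi (2R 12514444 to 12515287) was the only one to touch a member of this pair, and Exd+Hth extended it to the start of CG13151. It had 5 of 8 proteins with Hth and 3 of 8 without. It measured 756 bp in Dfd+Hth and 566 in Dfd, 722 in Scr+Hth and 542 in Scr, and 636 in AbdB+Hth and 662 in AbdB. Ubx+Hth had 582 bp and AbdA+Hth 573 bp there, with no region in Ubx or AbdA, and Hth alone had 712 bp. Lab, Pb and Antp had no region at the achi start in either condition. AbdB+Hth and AbdB had a last site at the start of CG8569.

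Summed over the locus, Lab+Hth covered 0 bp, Pb+Hth 498, Dfd+Hth 3039, Scr+Hth 3454, Antp+Hth 589, Ubx+Hth 1209, AbdA+Hth 1993 and AbdB+Hth 3009 bp. Without Hth, Lab covered 334 bp, Pb 533, Dfd 2367, Scr 2999, Antp 534, Ubx 561, AbdA 1490 and AbdB 3671 bp. Dfd, Scr and AbdB were the highest in both conditions, and Lab, Pb and Antp stayed below 600 bp. The mean was 1724 ± 1335 bp with Hth and 1561 ± 1298 bp without (SD over 8 proteins), a difference of 163 ± 489 bp, higher in 5 and lower in 3 of 8 proteins (exact two-sided sign-flip permutation, p = 0.344).

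Of the other TALE homeobox genes, mirr, an Iroquois gene, had regions of 8 of 8 proteins with Hth and 8 of 8 without, at both thresholds. Its relatives caup had 2 with Hth and 5 without, and ara 1 with Hth and 0 without, and CG11617 had 6 in each condition. The covered length passed the test (unadjusted p below 0.05) in 0 of these 4 genes. Over all genes tested, 7.32% passed with more length with Hth and 0.0619% with less. Beside the counts of this list and the next ones, 17.0% of protein-coding genes had all 8 proteins with Hth and 19.2% all 8 without, at q 0.01. At q 1e-10, 4.92% had all 8 with Hth and 6.85% at least 7 without.

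Among 7 genes for other factors known to act with Hox proteins, tsh and its paralog tio (zinc finger factors) and disco and disco-r (zinc finger factors of the head) had 8 of 8 in both conditions. The segmentation genes en and slp2 had 6 proteins each with Hth, against 7 and 6 without, and slp1 had 0 in both. Covered length was higher with Hth for 2 of the 6 that could be tested (unadjusted p below 0.05, against 7.32% of all genes tested), and lower for 0 (0.0619% of all). These were tio, at 2044 bp with Hth and 1494 bp without (higher in 8 of 8 proteins, exact permutation p = 0.00781), and tsh, at 1266 bp with Hth and 1004 bp without (6 of 8, p = 0.0313). Their adjusted p were 0.415 and 0.507.

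Of 4 genes whose products work with the TGIF class, Smox, the Smad of the activin branch, had 8 of 8 in both conditions, comr had 6 with Hth and 3 without, topi 3 with Hth and 4 without, and aly 0 in both. The genes aly, comr and topi act in the spermatocyte programme, as vis and achi do. Covered length passed the test in 0 of the 3 with any Hox region (7.32% of all genes tested passed with more, 0.0619% with less). The gene comr had 804 bp with Hth and 276 bp without, higher in 5 of 8 (exact permutation p = 0.0625). Of 7 genes that act with or against hth in appendages, ct, dac and dpp had 8 of 8 with Hth, and ct, dac, wg and vg had 8 of 8 without. Dll, the distal leg gene, had 2 with Hth and 3 without. Covered length was higher with Hth for 2 of the 7 (7.32% of all genes tested), dpp (1602 bp with Hth and 852 bp without, 8 of 8 proteins, exact permutation p = 0.00781) and ct (6428 bp with Hth and 5068 bp without, 7 of 8, p = 0.0313), and lower for 0 (0.0619% of all), with adjusted p of 0.415 and 0.507.

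The genes whose covered length over the 18 groups was most like that of hth were Eip63E, a kinase gene (Pearson r = 0.942), CG7878 (0.931) and Strump (0.924), out of 7410 compared. For exd they were RpL37-2 and its neighbour CG42703 (both 0.914) and Mdh1, a malate dehydrogenase gene (0.902). For vis they were the adjacent CG10086, CG2641 and CG18744 (each 0.981), and for achi OtopLa, a proton channel gene (0.976), Pat1 (0.964) and eIF1A (0.961). The 18 points share the size of their lists, with which the covered length of hth itself had r = 0.808, exd 0.567, vis 0.852 and achi 0.826. As shares of the list, 0 of these 3 genes stayed for hth, exd and vis and 1, OtopLa, stayed for achi.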

How the data were processed

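Regions bound in 18 ChIP-seq groups were taken from the lists deposited for the series. As described in the paper's methods and listed in the processing notes, the authors mapped reads to dm6 (Bowtie 1.2.2, reads with 1 match kept) and ran MACS2 2.1.1.20160309 on every replicate with its input, at q 0.01 and q 1e-10. They dropped regions over plasmid exons, and where peaks of both replicates overlapped they deposited the joined region. The deposited start and end columns are positions, and the deposited score column is 0 throughout and was not used.

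No region ended beyond its arm in the Release 6 reference. Gene models were those of Ensembl 115. Covered length counts a region whole if it touches the gene body with 5 kb. Differences with minus without Hth were tested by exact two-sided sign-flip permutation over 8 proteins, which are not replicates of 1 condition, so p describes how uniform a difference was over them. Benjamini-Hochberg adjustment ran over all genes tested. Sites merge regions that overlap by at least 1 bp. Motifs were sought in 200 bp windows, and uniqueness was counted for 50-base stretches on both strands. Named genes were the members, 4 gene lists, and for each member the 3 genes at least 20 kb away with the highest Pearson r. Members and lists were chosen with earlier results of these data known. Functions were tested on simulated data (Python 3.11.15, numpy 2.4.6, scipy 1.17.1).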

Additional observations from a re-analysis of the deposited data

Results flagged for a closer look

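Among 12 sets of 8 values (3 for each of the 4 tests), 2 had a protein far from the others, where chance gives about 1 in 20 and the proteins are not replicates. For the number of hth regions without Hth, AbdB had 8 (regions over hth exons left out), against 3 to 5 in the other proteins. For the length covered at exd with Hth, Dfd+Hth had 729 bp, against 0 to 308 bp in the others. The lists of AbdB and Dfd+Hth are the largest of their conditions, with 9776 and 12050 regions, and the part of list size in these values was not tested.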

How the results depend on the processing

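No paired analysis was possible because the lists combine both replicates and carry no replicate number, so libraries could not be paired by number; the tests pair each protein with Hth with the same protein without it. At hth the difference in covered length was 889.6 bp (exact permutation p = 0.0547). In the q 1e-10 lists it was 362 bp (exact permutation p = 0.0859), and as a share of the list 83.2 bp for each Mb listed (exact permutation p = 0.18). It passed the threshold as deposited (1034 bp, exact permutation p = 0.0391) and with regions within 1 kb of an hth exon left out (983 bp, p = 0.0469). Leaving out 1 protein at a time gave 712 to 1187 bp at hth (exact p 0.0156 to 0.109), 0.714 to 1.43 regions at hth, 42.9 to 99.9 bp at exd and 90.0 to 281 bp at vis and achi. The smallest p at hth came from leaving out AbdB, the only protein with less covered length there with Hth. Reversed were the number of hth regions in the q 1e-10 lists (-0.125, p = 1) and vis and achi as a share of the list (-23.0 bp for each Mb listed, exact p = 0.492). Within one sequencing platform, Lab, Pb, Dfd, Scr and Antp gave 1205 bp at hth (exact permutation p = 0.0625, the smallest possible) and within the other Ubx, AbdA and AbdB gave 363 bp (p = 1). The cause was not tested.

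Counts moved as follows. In the gene body alone, exd and vis had 0 proteins with Hth and 0 without; within 1 kb vis had 4 with Hth and 4 without. In the q 1e-10 lists exd had 1 with Hth and 0 without, and achi 3 with Hth and 2 without. Merged sites at exd numbered 1 at q 1e-10, and those touching a gene body 0 at exd and 2 at vis and achi, the last chosen after seeing the data. As shares of the list, 0 of 3 like genes stayed for hth, exd and vis and 1 for achi. The lists show no depth, so a missing region is one not called in both libraries.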
